A study of Mus musculus with 28 samples.

Results

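The mitochondrial DNA of the mouse carries 37 annotated genes, and all of them were in the count table of 43629 genes. They were taken as every gene placed on chromosome MT or with a symbol that starts with mt-, whatever its level. By class they are 13 mRNAs for subunits of the respiratory chain, 2 rRNAs of the mitochondrial ribosome and 22 tRNAs. They were followed across all 28 libraries of cortex RNA from mice of the Glt25d2 BacTRAP genotype. Every group carried that genotype, in which a tagged protein of the cytosolic ribosome is driven in layer 5 projection neurons by the promoter of Glt25d2 (Colgalt2), so these neurons are defined by 1 promoter. EAE, the mouse model of multiple sclerosis, was induced with the myelin peptide MOG35-55. Acute EAE was sampled at day 15 after immunisation, in 5 libraries of RNA pulled down with the tagged ribosomes (IP) and 5 libraries of whole cortex RNA (input). Chronic EAE was sampled at day 30, in 4 IP and 4 input libraries. Healthy mice gave 5 IP and 5 input libraries. Nothing in the labels states that each library is a mouse of its own, so p-values measure the spread between these libraries, which may be technical. The age of the mice is not given in the sources used here.

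Mitochondrial DNA is transcribed from both strands into long precursors, which are cut at the tRNAs that lie between the other genes. Most of the mRNAs get a short poly(A) tail, and all are translated inside the organelle by mitochondrial ribosomes, whose proteins are encoded in the nucleus. The 13 proteins sit in complexes I, III, IV and V of the respiratory chain beside many nuclear-encoded partners, and complex II has none of them. In the annotation 12 of the mRNAs and both rRNAs lie on the plus strand. mt-Nd6, a complex I subunit, lies on the minus strand with 8 of the tRNAs, and the remaining 14 tRNAs lie on the plus strand.

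Copies of mitochondrial DNA in the nuclear genome matter for this table, since a read that fits both a gene and its copy has more than one place to map, and the counting command in the file header had no option to count such reads. The start of mt-Co2, a core subunit of cytochrome c oxidase (complex IV), is shown with its 2 nearest annotated copies as an example of a gene with an exact double. Sequences are those of the GENCODE M21 transcripts (GRCm38), 5′ to 3′, and capitals mark bases of a copy that differ from the mitochondrial gene. They lie at chrM:7013-7102 on the plus strand for mt-Co2, chr1:24615476-24615565 on the minus strand for the pseudogene Gm28661, and chr2:22587873-22587962 on the minus strand for the pseudogene Gm13341.
mt-Co2: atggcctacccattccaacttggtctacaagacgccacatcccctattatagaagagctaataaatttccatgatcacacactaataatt
Gm28661: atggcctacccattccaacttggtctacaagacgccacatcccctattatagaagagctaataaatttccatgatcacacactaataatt
Gm13341: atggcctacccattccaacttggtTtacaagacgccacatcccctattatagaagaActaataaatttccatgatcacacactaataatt

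The first 90 bases of Gm28661 held 0 differences from mt-Co2, and its whole alignment of 681 bases was 100% identical. Gm13341 held 2 differences in these 90 bases and was 95.9% identical over 684 bases. mt-Cytb, the core subunit of complex III, is shown as the contrasting case, a gene whose only annotated copy had drifted. It lies at chrM:14145-14234 on the plus strand, and its copy Gm11410 at chr4:80003990-80004078 on the plus strand starts at the second base and carries 5 differences.
mt-Cytb: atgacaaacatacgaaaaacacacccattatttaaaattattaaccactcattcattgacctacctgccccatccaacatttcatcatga
Gm11410: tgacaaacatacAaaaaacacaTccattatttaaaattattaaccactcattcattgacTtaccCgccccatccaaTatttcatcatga

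Of all windows of 100 bases in mt-Cytb, 0% were found whole in an annotated transcript of another gene, and the same held for mt-Nd1, mt-Nd5 and mt-Nd6. A single block on chromosome 1 held copies of 7 neighbouring genes at 99.7% to 100% identity. The share of windows found there or in another copy was 97.6% to 99.9% for 5 mRNAs: mt-Co2, mt-Atp6, mt-Co3, mt-Nd3 and mt-Nd4l. It was 60.8% for mt-Nd4, 30.8% for mt-Co1 and 3.19% for mt-Nd2. The counts of the 5 mRNAs above 90% are uncertain for that reason, and the levels given for them are levels of reads that were assigned. Overlapping neighbours on the same DNA, such as mt-Atp8 and mt-Atp6 or mt-Nd4l and mt-Nd4, could share reads too, and the counting used no strand.

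The libraries held 6198088 to 21229550 counts in the IP and 17848273 to 27915940 in input. Between 9566 and 17995 genes had a count in an IP library, against 20714 to 21734 in an input library, and the IP libraries acute 1, acute 3, chronic 3 and healthy 5 had the fewest. The common biological coefficient of variation was 1.06 among IP libraries and 0.101 among input libraries, so a change of a given size is called far less readily in the IP. In simulated counts of the same depth, 9% of genes changed 2-fold and 33% of genes changed 4-fold were called for acute against healthy IP, and 83% and 98% for input. Layer 5 markers rose in the IP against input for 5 of 7 in acute, 5 of 7 in chronic and 4 of 7 in healthy mice. The share of all genes called higher was 8.56%, 8.74% and 7.20% in these phases. Oligodendrocyte markers fell for 4 of 6, 3 of 6 and 4 of 6, with 2 of 6 higher in chronic mice. The share of all genes called lower was 10.1%, 20% and 14.4%. Calls for markers of other cell types in this comparison are not given here. All RNA is from many cells, so fewer cells of a type and less RNA per cell cannot be told apart.

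Nearly all mitochondrial counts were mRNA, rRNA came next and tRNA was close to absent. Over the 14 IP libraries the mRNAs drew 64162 counts, the rRNAs 12575 and the tRNAs 15, the last over 4 of the 22 genes. Over the 14 input libraries the mRNAs drew 1143179 counts, the rRNAs 187029 and the tRNAs 3355, over 17 of the 22 genes. Of the 13 mRNAs, 12 had counts in the IP, but only 4 had them in every IP library. mt-Atp8, a short subunit of ATP synthase (complex V), had 0 counts in all of them, and in input it summed to 6 counts in healthy, 31 in acute and 11 in chronic mice.

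The mRNAs made up far less of the IP than of the input, and less of the diseased than of the healthy IP. Their share of a library's gene counts was 0.0471 ± 0.0175% in healthy, 0.0156 ± 0.00392% in acute and 0.0201 ± 0.00536% in chronic IP libraries (mean ± SD, n = 5, 5 and 4). All acute IP libraries (0.0108% to 0.0195%) and all chronic ones (0.0138% to 0.0265%) lay under all healthy ones (0.0269% to 0.0670%). In input the share was 0.381 ± 0.104% in healthy, 0.396 ± 0.130% in acute and 0.481 ± 0.195% in chronic libraries, and the phases overlapped. The acute mean was 3.03-fold lower than the healthy mean in the IP, and the chronic mean 2.34-fold lower. Set against the input of its own phase, the IP share was 25.4-fold lower in acute, 23.9-fold lower in chronic and 8.09-fold lower in healthy mice. On CPM scaled by TMM in place of percent, the chronic and healthy IP libraries overlapped. No test was made on these sums.

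**Figure D1:**
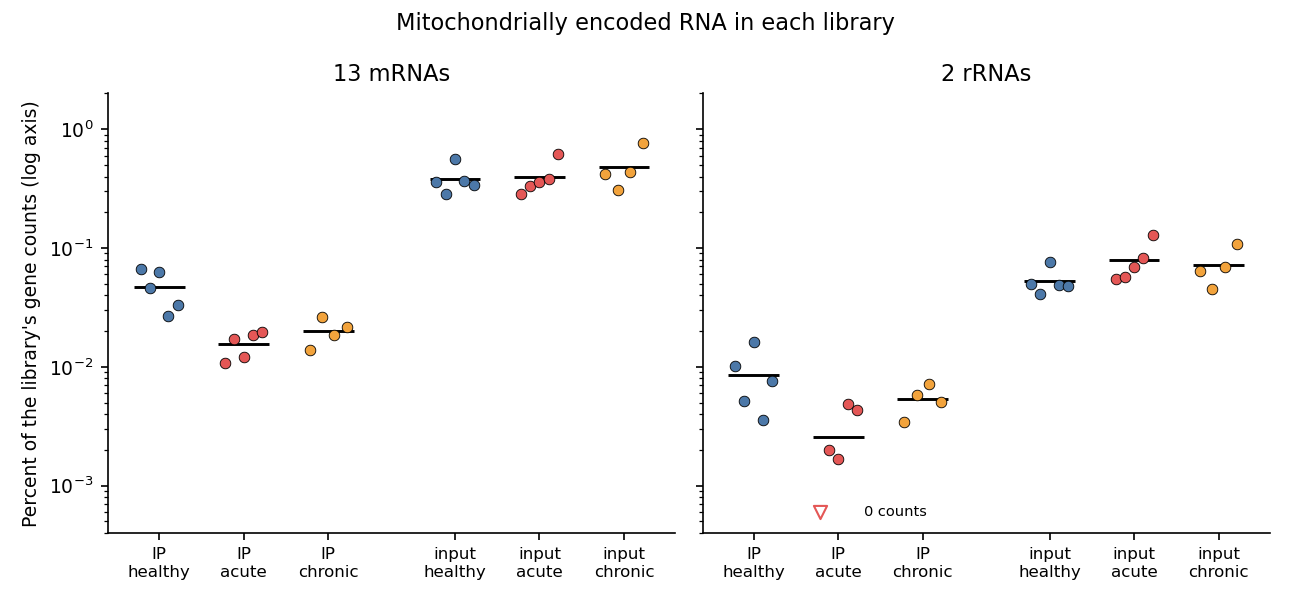
Percent of each library's gene counts on the 13 mitochondrial mRNAs (left) and the 2 rRNAs (right), on a log axis, for IP and input libraries by phase; points are libraries, lines are means, and an open triangle marks a library with 0 counts. The acute and chronic IP libraries lie under the healthy ones for mRNA, with means of 0.0156%, 0.0201% and 0.0471%, and the input phases overlap.

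The rRNA shares had the same order of means for diseased and healthy IP, but both acute and chronic libraries overlapped healthy ones. In the IP they made up 0.00851 ± 0.00498% of counts in healthy, 0.00257 ± 0.00201% in acute and 0.00534 ± 0.00152% in chronic libraries. IP library acute 1 had 0 rRNA counts beside 1102 mRNA counts. The mRNAs were also set against the summed counts of 77 nuclear-encoded respiratory chain genes in the same library. That ratio was 0.0230 in healthy, 0.00969 in acute and 0.0102 in chronic IP libraries, with every acute and every chronic library under every healthy one. The nuclear sum itself overlapped between phases in the IP, at 2.07%, 1.77% and 1.99% of counts.

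Per kilobase of transcript, the mRNAs fell into a high and a low set, and the low set held the 5 with nuclear doubles and mt-Atp8, which has no annotated one. In healthy IP the 7 mRNAs with at most 90% of windows shared, mt-Atp8 aside, had 15.9 to 106.5 CPM per kilobase (CPM is the read count relative to the TMM-scaled library size). The 5 with more had 0.0822 to 2.15 CPM per kilobase. In healthy input the ranges were 174.6 to 933 and 1.45 to 9.29 CPM per kilobase, and the sets stayed apart in every group. mt-Atp8 had 0.299 CPM per kilobase in healthy input. The genes on both sides of it have copies in the block on chromosome 1, and unannotated sequence was not searched.

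Within the high set the order in healthy input was mt-Co1, mt-Cytb, mt-Nd1, mt-Nd2, mt-Nd4, mt-Nd6 and mt-Nd5. mt-Co1, the catalytic subunit of complex IV at chrM:5328-6872, had 106.5 ± 47.7 CPM per kilobase in healthy IP and 933 ± 209.7 in healthy input. mt-Cytb had 586 ± 182 and mt-Nd1, a complex I subunit, 492 ± 120.5 CPM per kilobase in healthy input. From mt-Nd2 (249 ± 79.1) through mt-Nd4 (230.3 ± 76.0) and mt-Nd6 (187 ± 55.3) to mt-Nd5 (175 ± 49.2) each neighbour lay within 1 SD of the next. The same 7 led in every group, with mt-Nd1 first by mean in chronic IP at 49.4 ± 32.2 CPM per kilobase, and mt-Co1 next at 47.2 ± 16.8, which is within 1 SD. The rRNAs stood at 263 ± 65.1 (mt-Rnr1, of the small ribosomal subunit, chrM:70-1024) and 154 ± 39.3 CPM per kilobase (mt-Rnr2, of the large subunit, chrM:1094-2675) in healthy input.

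**Figure D2:**
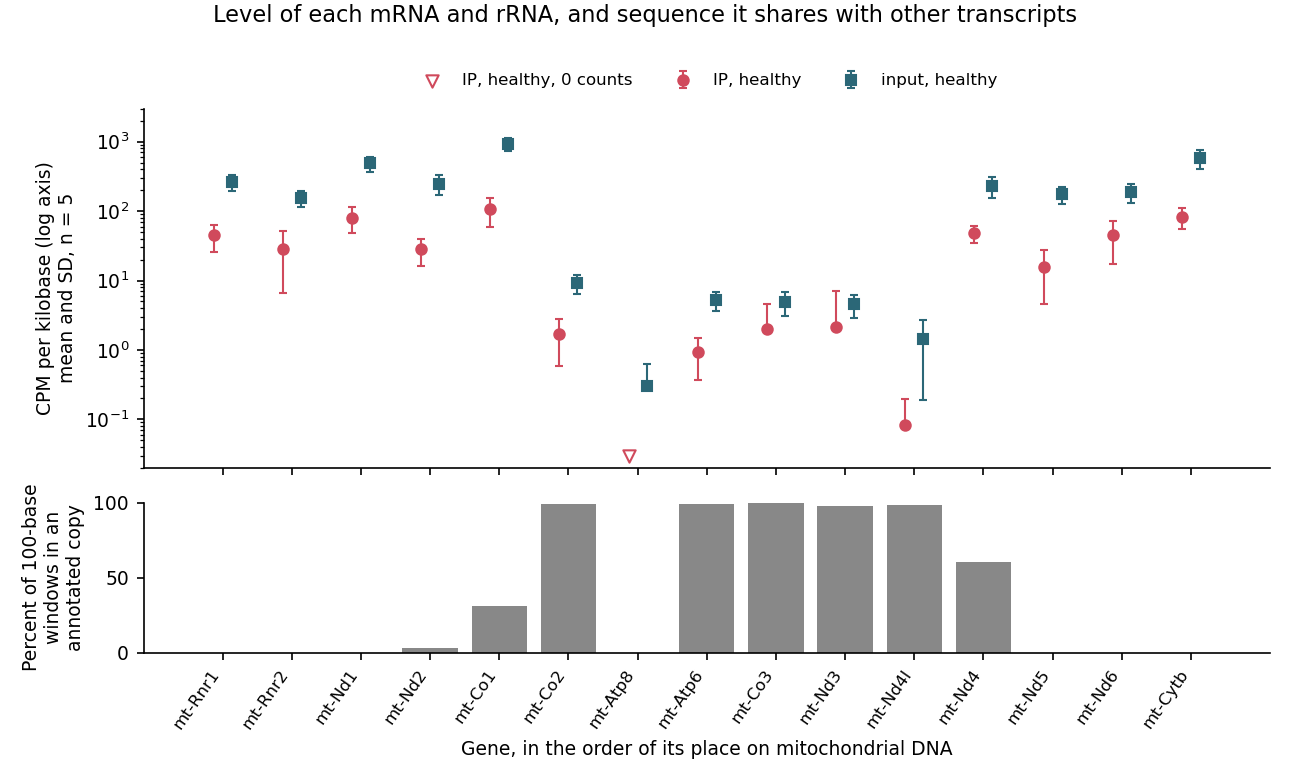
Upper panel: level in CPM per kilobase (log axis, mean and SD, n = 5) of each mRNA and rRNA in healthy IP (circles) and healthy input (squares), in map order; a lower bar is left out where the SD exceeds the mean, and the open triangle marks mt-Atp8 at 0 counts. Lower panel: percent of 100-base windows found in an annotated transcript of another gene; the 5 mRNAs at 97.6% to 99.9% have the low levels, as has mt-Atp8 at 0%.

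The make-up of the mitochondrial mRNA varied more between IP libraries than between input libraries. mt-Co1 took 33.2 ± 4.78% of mitochondrial mRNA counts in healthy, 33.1 ± 10.3% in acute and 34.2 ± 10.1% in chronic IP. It took 40.5 ± 1.76% in healthy, 40.3 ± 0.931% in acute and 40.5 ± 0.132% in chronic input. Levels of the high set varied together in input. The SD of log2 CPM was at least 0.30 there (mt-Co1, healthy), and that of the log2 share of the mitochondrial mRNA at most 0.090 (mt-Nd4, healthy). For mt-Co1 in chronic input these SDs were 0.54 and 0.0047, the latter being the lowest of any gene. mt-Co1 is also the largest part of that sum. Genes of the low set could be looser: the SDs were 0.65 and 0.21 for mt-Co3 in chronic input. For mt-Nd4l they were 0.98 and 0.52 in chronic and 0.51 and 0.76 in acute input. In the IP mt-Nd4, a complex I subunit at chrM:10167-11544, took 4.0%, 7.40%, 12.1% and 11.3% of mitochondrial mRNA counts in chronic libraries and 22.1%, 14.1%, 26.9%, 12.3% and 16.7% in acute ones, without overlap. mt-Nd6 took 3.96%, 4.70%, 7.06% and 4.19% in chronic and 3.81%, 1.44%, 0%, 3.55% and 2.77% in acute IP libraries, all chronic values being higher. Both genes were named after the values of all mRNAs were seen, and the other mRNAs overlapped between chronic and acute IP. The margins were narrow, at 12.1% against 12.3% for mt-Nd4 and 3.96% against 3.81% for mt-Nd6. These shares were not tested, and each share bears on the others, since they sum to the whole.

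In the IP, acute EAE was compared with healthy to see how the mitochondrial RNA in the pulldown differed in disease. The tag is on the cytosolic ribosome, while mitochondrial mRNAs are translated by mitochondrial ribosomes. How mitochondrial RNA came into the IP was not tested. The filter on low counts kept 10 of the 37 genes in the IP fit: mt-Nd1, mt-Nd2, mt-Co1, mt-Co2, mt-Nd4, mt-Nd5, mt-Nd6, mt-Cytb and both rRNAs. All 10 had lower fitted values in acute mice, and 1 of them passed the test. mt-Cytb (chrM:14145-15288) had 20.2, 33.8, 36.8, 32.4 and 36.2 CPM in the acute IP libraries, against 110.3, 86.2, 135, 52.9 and 87.3 CPM in the healthy ones. Every acute library was lower than every healthy one. mt-Cytb fell by 1.57 ± 0.30 on the log2 scale (edgeR quasi-likelihood test, Benjamini-Hochberg adjusted p = 0.0497). It was the only gene called lower among the 13914 tested, which makes the background 0.00719%. The call rests on single libraries: it was kept without acute 1 and without healthy 4, and lost without any one of acute 2, 3, 4 and 5 or healthy 1, 2, 3 and 5, with adjusted p between 0.0295 and 0.197. Without the 4 IP libraries with the fewest genes 0 mitochondrial genes were called, and with a replicate block 0.

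The differences of the other genes did not pass the test. mt-Co1 had 30.8, 79.7, 20.8, 83.0 and 87.8 CPM in acute and 265, 139, 218, 106.3 and 94.8 CPM in healthy IP libraries, with a log2 difference of -1.46 ± 0.38 (edgeR adjusted p = 0.239). Its groups did not overlap either. mt-Nd4 had 25.0, 27.0, 31.3, 25.0 and 38.2 CPM in acute and 86.8, 67.3, 77.1, 38.4 and 62.9 CPM in healthy IP libraries, again with no overlap by a narrow margin, and a log2 difference of -1.19 ± 0.37 (edgeR adjusted p = 0.379). mt-Nd1 had 15.2 to 31.3 CPM in acute and 26.5 to 112 CPM in healthy IP libraries (log2 -1.66 ± 0.39, edgeR adjusted p = 0.158), where only healthy 4 reached into the acute range. mt-Nd6 gave -2.50 ± 1.0, mt-Nd2 -1.77 ± 0.87, mt-Nd5 -1.43 ± 1.11 and mt-Co2 -2.15 ± 1.72 on the log2 scale. For the rRNAs the log2 differences were -1.34 ± 0.81 (mt-Rnr1) and -2.01 ± 0.89 (mt-Rnr2). Over the 8 mRNAs that passed the filter the median was -1.62, beside -0.04 over all genes tested. These 8 are the mRNAs with enough IP counts, so the median does not stand for all 13. At an unadjusted p under 0.05 there were 6 of the 10 mitochondrial genes and 871 of all genes.

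In chronic EAE the same 10 genes were again below healthy in fitted value, and 0 were called, against a background of 0.00719% called lower. At an unadjusted p under 0.05 there were 3 of them, beside 1495 of all 13914 genes. DESeq2 called 2 of them, beside 296 of all genes. mt-Nd4 came nearest to the threshold, with 5.92, 21.6, 23.1 and 26.8 CPM in the chronic IP libraries, all under the healthy values given above (log2 -1.79 ± 0.41, edgeR adjusted p = 0.0693). mt-Cytb had 33.8, 58.7, 30.1 and 40.8 CPM in chronic IP libraries, of which chronic 2 lay above the lowest healthy library (log2 -1.22 ± 0.32, edgeR adjusted p = 0.113). mt-Co1 had 44.2, 64.6, 76.2 and 106.4 CPM in chronic IP libraries (log2 -1.18 ± 0.41, edgeR adjusted p = 0.288). For the remaining mRNAs the log2 differences ran from -0.72 for mt-Nd1 to -1.89 for mt-Co2, and for the rRNAs they were -0.51 and -0.76. The median over the 8 mRNAs was -1.20, beside -0.03 over all genes. Acute and chronic mice were both set against the same healthy libraries, so these 2 comparisons are not independent.

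Chronic against acute IP gave 0 calls among the 10 genes, 0 by DESeq2, and 0% of all genes tested. Log2 differences ran from -0.60 (mt-Nd4) to 1.39 (mt-Nd6), and 1 gene had an unadjusted p under 0.05, mt-Nd1 at 0.94 ± 0.41. mt-Nd1 had 37.6, 92.8, 33.9 and 24.7 CPM in chronic and 15.2, 24.5, 23.2, 31.3 and 29.1 CPM in acute IP libraries, which overlap.

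**Figure D3:**
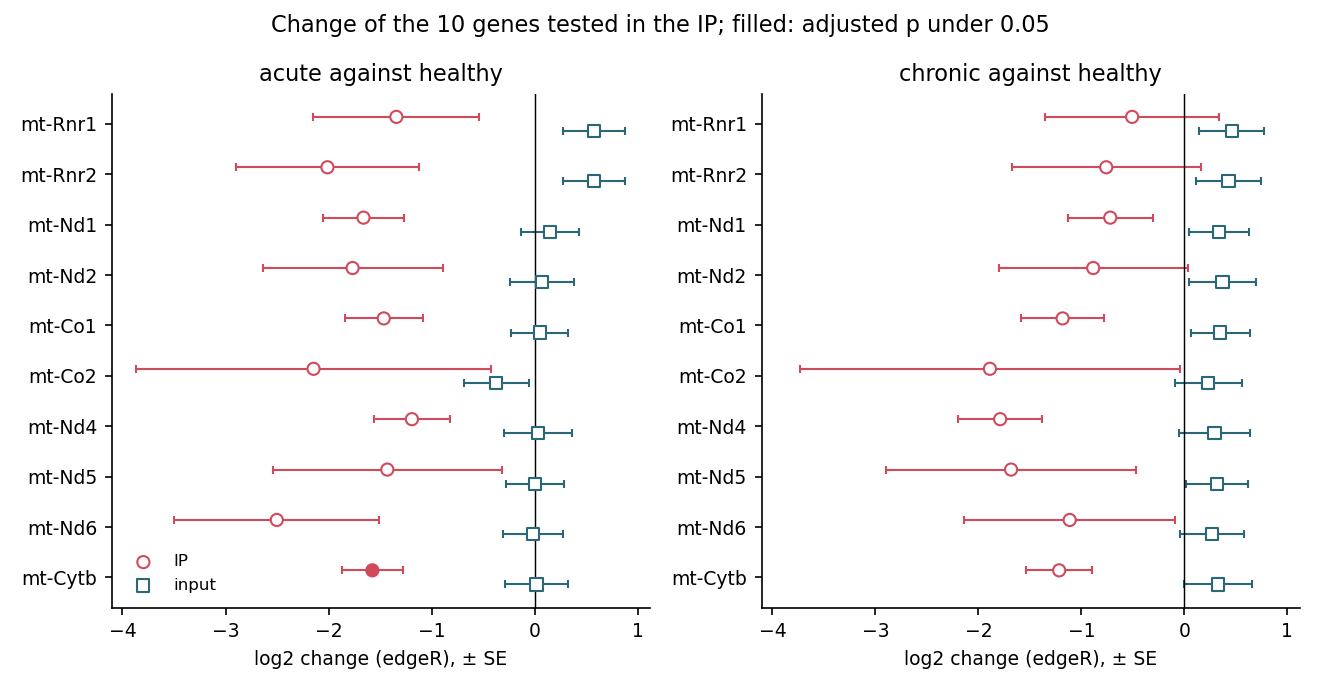
Log2 change (edgeR, ± SE) against healthy of the 10 mitochondrial genes that passed the filter in the IP, for acute (left) and chronic EAE (right), in the IP (circles) and in input (squares); filled points had an adjusted p under 0.05. All IP points lie below 0 and 1 is filled, mt-Cytb in acute mice; the input points of these genes lie between -0.37 and 0.58.

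Another class of RNA that stood low in the IP, nuclear noncoding RNA, had a lower share in acute IP. A list of 10 nuclear noncoding RNAs summed to 0.0124% to 0.0238% of counts in acute, 0.0192% to 0.0310% in chronic and 0.0286% to 0.0538% in healthy IP libraries, and every acute library lay under every healthy one, while chronic and healthy ones overlapped. Between 0 and 6 of the 10 were at 0 in an acute library, 3 to 6 in a chronic one and 1 to 4 in a healthy one. Of the 8 tested in the IP, 0 were called in either phase, with median log2 differences of -1.18 in acute and -0.93 in chronic against healthy. Meg3, an imprinted long noncoding RNA of neurons, differed by -1.39 ± 0.38 in acute (edgeR adjusted p = 0.256) and -1.33 ± 0.41 in chronic IP (edgeR adjusted p = 0.199). Sums of cell type markers also had other ranges. Those of layer 5 neurons summed to 0.142% to 0.191% of counts in acute, 0.0880% to 0.142% in chronic and 0.102% to 0.136% in healthy IP, with 0 of 7 at 0 in any library. Those of astrocytes summed to 0.0555% to 0.0843% in acute, 0.0424% to 0.124% in chronic and 0.0254% to 0.0516% in healthy IP, with at most 1 of 6 at 0 in a chronic library and 0 of 6 at 0 in the acute and healthy ones. Every acute library was above every healthy one for both lists. Inhibitory neuron markers summed to 0.0494% to 0.0748% in acute, 0.0817% to 0.110% in chronic and 0.0485% to 0.0677% in healthy IP, every chronic library being above every healthy one. Oligodendrocyte markers summed to 0.0809% to 0.107% in acute, 0.112% to 0.265% in chronic and 0.102% to 0.130% in healthy IP, with overlap. Leukocyte markers were near 0, with sums of 0.000649% to 0.00390% in acute, 0.000468% to 0.0071% in chronic and 0% to 0.000482% in healthy IP. The part of these shifts in the mitochondrial result was not tested.

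In the diseased IP few genes of any kind were called, 0.0647% in acute and 0.187% in chronic mice against healthy, and the counts of nuclear-encoded partners were near that background. Of 77 nuclear-encoded respiratory chain subunits, 0 were called in acute or chronic IP against healthy, with medians of -0.37 and -0.41 on the log2 scale. Of 73 mitochondrial ribosomal proteins 0 were called in either phase, with medians of -0.31 and -0.33. Of 15 genes of mitochondrial transcription and replication and 12 translation factors, 0 were called. Among 19 genes of mitochondrial RNA processing and stability 1 was called, in chronic IP: Lrpprc, which stabilises mitochondrial mRNAs, rose by 1.35 ± 0.23 (edgeR adjusted p = 0.00872).

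Whether the change from healthy differed between IP and input was tested as an interaction over all 28 libraries, in which 19 mitochondrial genes passed the filter. This joint fit shared its dispersion estimates between IP and input, whose biological coefficients of variation were 1.06 and 0.101. Against healthy, it called 1611 genes in place of 9 for acute IP and 20 in place of 3230 for acute input. The SEs and p-values of the interaction rest on that shared spread and may be too small for the IP. For acute EAE 0 of the 19 were called and 0% of all genes lower, although 11 of the 19, beside 1901 of all 16580 genes, had an unadjusted p under 0.05. DESeq2 called 4, beside 384 of all genes. mt-Cytb gave -1.58 ± 0.37 (edgeR adjusted p = 0.0706), mt-Nd1 -1.79 ± 0.45 (0.0739) and mt-Nd6 -2.42 ± 0.64 (0.0817). The 12 mRNAs tested all had negative values. Without the IP and input libraries acute 1, mt-Cytb was called (edgeR adjusted p = 0.0329).

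For chronic EAE 2 of the 19 were called, both lower, beside 0.392% of all genes. The change of mt-Nd4 in the IP minus that in input was -2.07 ± 0.46 (edgeR adjusted p = 0.0277), and for mt-Cytb it was -1.53 ± 0.39 (edgeR adjusted p = 0.0490). Both calls rest on the shared dispersion of the joint fit, and neither gene was called in chronic EAE when the IP was fitted alone. The 12 mRNAs again all had negative values, with a median of -1.52. The call of mt-Nd4 was lost without chronic 3 or 4 or healthy 1, 2 or 5, with adjusted p between 0.0261 and 0.0752 over all 9 fits that left out a pair of libraries. That of mt-Cytb was kept only without chronic 2 and without healthy 4 and lost without any other, with adjusted p between 0.0335 and 0.120. Without the 4 IP libraries with the fewest genes 0 were called, and with no filter on low counts 0. With a replicate block fewer were called than in the main fit.

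In input 0 of the mitochondrial mRNAs were called in acute EAE. Of the 19 mitochondrial genes tested 2 were called, both tRNAs, 1 higher and 1 lower, and the same number had an unadjusted p under 0.05. The background was 19.7% of all genes in either direction. The 12 mRNAs had log2 differences between -0.37 (mt-Co2) and 0.50 (mt-Nd3) and a median of 0.02. mt-Cytb, the gene called in the IP, had 477, 571, 611, 625 and 1108 CPM in acute and 603, 478, 1022, 664 and 581 CPM in healthy input libraries, a difference of 0.02 ± 0.31. The nuclear-encoded respiratory chain subunits differed in input: 41 of 77 rose in acute EAE with a median of 0.14, and 0 fell, beside 11.1% of all genes called higher.

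The tRNA for asparagine, mt-Tn, and that for glutamate, mt-Te, are both minus-strand genes, and they went opposite ways. Their sequences, with the anticodon in capitals, are shown because they are the only mitochondrial genes called in acute input. They are given with that of the tRNA for proline, mt-Tp, which drew the most counts of any tRNA. They lie at chrM:5089-5159, chrM:14071-14139 and chrM:15356-15422 of GRCm38, all on the minus strand.
mt-Tn: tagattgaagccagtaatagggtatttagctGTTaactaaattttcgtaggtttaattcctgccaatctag
mt-Te: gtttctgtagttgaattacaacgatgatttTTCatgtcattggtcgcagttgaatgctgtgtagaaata
mt-Tp: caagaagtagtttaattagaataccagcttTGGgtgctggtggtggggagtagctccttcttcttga

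mt-Tn had 35, 73, 54, 59 and 55 counts in acute and 29, 20, 24, 21 and 16 counts in healthy input libraries. Every acute library was higher. It rose by 1.08 ± 0.21 on the log2 scale (edgeR adjusted p = 0.00109), and the call held without any single library. mt-Te had 4, 11, 4, 7 and 6 counts in acute and 11, 11, 21, 14 and 10 counts in healthy input libraries. Scaled to library size every acute library was lower, and it fell by 1.31 ± 0.38 (edgeR adjusted p = 0.020). That call was lost without acute 3 or without healthy 3, with adjusted p between 0.0220 and 0.0620. mt-Tp had 127, 187, 151, 170 and 263 counts in acute and 106, 59, 154, 105 and 98 counts in healthy input (log2 0.56 ± 0.32, edgeR adjusted p = 0.248). The tRNA counts are few, come from short genes in a poly(A) library and are no measure of the pool of mature tRNA. They were also made without strand, so reads from RNA of the opposite strand at these places would be counted too.

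In chronic input mt-Tn had 14, 16, 24 and 23 counts, or 0.955 ± 0.241 CPM in chronic against 1.11 ± 0.208 CPM in healthy and 2.36 ± 0.360 CPM in acute libraries. It was not called against healthy (-0.22 ± 0.25, edgeR adjusted p = 0.753). Against acute it fell by 1.30 ± 0.23 (edgeR adjusted p = 0.00241), with every chronic library under every acute one, and this call held without any single library. It was the 1 call among the 19 genes in that comparison, beside 7.69% of all genes. Against healthy, 1 of the 19 was called in chronic input, beside 2.74% of all genes. mt-Nd3, a complex I subunit at chrM:9459-9806, had 59, 45, 77 and 143 counts in chronic and 26, 23, 47, 37 and 22 counts in healthy input, and rose by 1.35 ± 0.33 (edgeR adjusted p = 0.0353). Chronic 2 lay below healthy 3, so the groups overlap. The call was lost without chronic 3 or 4 or healthy 1, 2, 4 or 5, with adjusted p between 0.0124 and 0.156, and with no filter on low counts. Without chronic 4 the difference was 0.93, and of mt-Nd3's windows 97.6% are also in a nuclear copy. The calls of mt-Tn, mt-Te and mt-Nd3 in input were all lost when the input libraries were fitted together with the IP libraries.

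The ratio of rRNA to mRNA was higher in acute input. There were 19.2, 17.1, 19.5, 21.5 and 21.0 rRNA counts per 100 mRNA counts in acute and 13.8, 14.4, 13.6, 13.3 and 14 in healthy input libraries. All acute values were higher, also than the chronic ones of 15.1, 14.5, 15.9 and 14.3. No test was made on this ratio. As levels, mt-Rnr1 and mt-Rnr2 each differed by 0.58 ± 0.30 between acute and healthy input and were not called (edgeR adjusted p = 0.211 for both). In the IP the ratio of rRNA to mRNA overlapped between phases, at 17.6 ± 6.50 in healthy, 14.8 ± 10.2 in acute and 27.1 ± 7.74 in chronic libraries.

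Among the 8 nuclear copies tested in input 2 rose in acute EAE, beside 11.1% of all genes called higher. They were chosen among the copies after their values were seen. Gm13340, a copy of mt-Co1 at chr2:22588103-22589647 with 97.6% identity, had 124, 173, 129, 230 and 283 counts in acute and 49, 66, 94, 77 and 41 counts in healthy input, and rose by 1.30 ± 0.31 (edgeR adjusted p = 0.00919). Gm13341, its neighbour and the copy of mt-Co2 printed above, had 33, 40, 26, 36 and 70 counts in acute and 9, 15, 18, 7 and 6 counts in healthy input, and rose by 1.67 ± 0.43 (edgeR adjusted p = 0.00966). Acute libraries were all higher for both. In chronic input Gm13340 had 82, 45, 78 and 106 counts and Gm13341 had 14, 2, 13 and 21. The exact double Gm28661 gave -0.70 ± 0.28 for acute against healthy (edgeR adjusted p = 0.0997), and it rose by 1.07 ± 0.29 in chronic against acute (edgeR adjusted p = 0.0391). Cep295, a nuclear gene, holds a stretch 91.5% identical to mt-Tn over 71 bases. How reads divide between the mitochondrial genes and these copies was not tested.

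**Figure D4:**
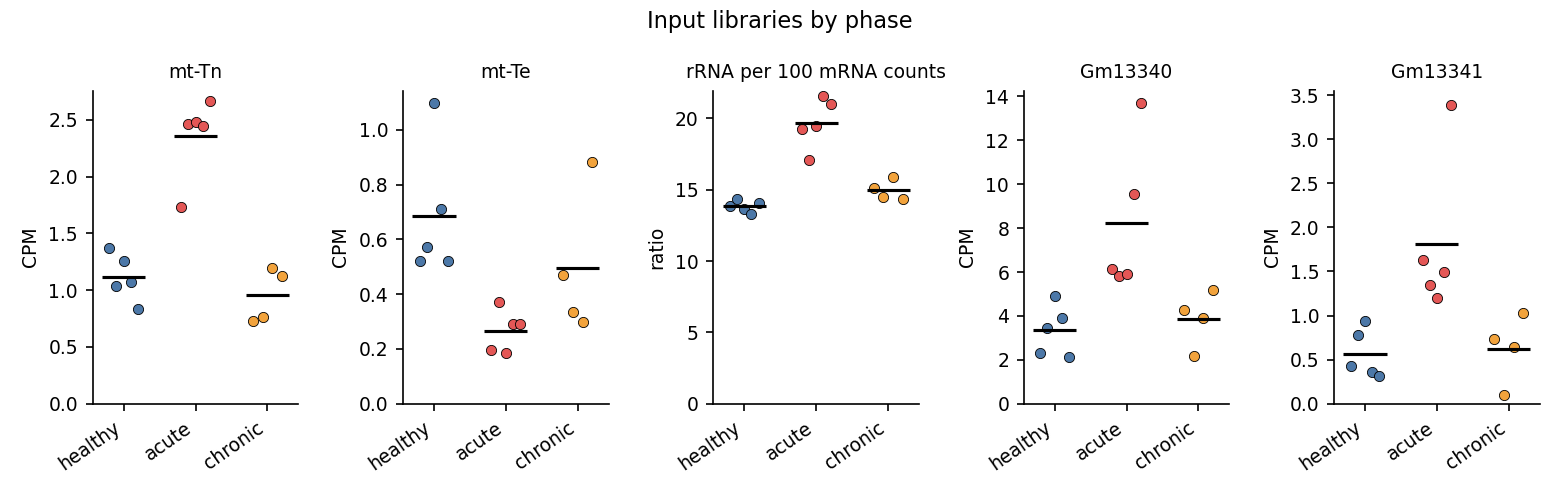
Input libraries by phase: CPM of mt-Tn and mt-Te, rRNA counts per 100 mitochondrial mRNA counts, and CPM of the copies Gm13340 and Gm13341; points are libraries, lines are means, and each axis starts at 0. mt-Tn, the ratio and both copies are highest in acute libraries, with mt-Tn at 2.36 CPM in acute against 1.11 CPM in healthy ones, and mt-Te is lowest there.

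IP against input was compared in each phase to see which RNA the pulldown of tagged ribosomes holds. These tests too come from the joint fit, with dispersion estimates shared between IP and input. Their SEs and p-values may be too small for the IP. In acute mice 19 of the 19 genes tested were called lower in the IP, beside 10.1% of all genes called lower. In chronic mice 19 of 19 were lower, beside 20%. In healthy mice 16 of 19 were lower, beside 14.4%, and 14 to 17 were when 1 pair of libraries was left out. With a replicate block fewer were called in acute and chronic mice, and the same number in healthy mice. The log2 difference of mt-Cytb was -4.41 ± 0.30 in acute (edgeR adjusted p = 2.97e-12), -4.36 ± 0.33 in chronic (4.21e-11) and -2.83 ± 0.27 in healthy mice (1.29e-08). mt-Co1 gave -4.61 ± 0.38, -4.65 ± 0.43 and -3.13 ± 0.35, and its IP and input libraries never overlapped. The rRNAs gave -4.44 ± 0.59 (mt-Rnr1) and -4.94 ± 0.65 (mt-Rnr2) in acute, -3.51 ± 0.63 and -3.60 ± 0.68 in chronic, and -2.55 ± 0.54 and -2.42 ± 0.58 in healthy mice.

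The smallest acute difference of an mRNA was that of mt-Nd4, at -3.47 ± 0.33. mt-Nd4l, a small complex I subunit at chrM:9877-10173, had 0 counts in acute IP against 48 in acute input, so it was at least 11.2-fold lower, from a floor of 3 counts over the group that covers counting error only. With mt-Nd4l at that bound the median over the 12 mRNAs was -4.40 in acute mice, beside -4.37 in chronic and -2.53 in healthy mice. The medians over all genes tested were -0.36, -0.32 and -0.23. The 3 genes not called in healthy mice were mt-Atp6 (-2.46 ± 0.95, edgeR adjusted p = 0.0661), mt-Co3 (-1.29 ± 0.87, 0.370) and mt-Nd3 (-1.07 ± 1.31, 0.688), each with more than 90% of windows in a nuclear copy. For mt-Nd3 all 57 counts of healthy IP came from library healthy 2, and for mt-Co3 healthy 1 gave 90 of 133. In acute mice the call of mt-Nd3 rests on single libraries, being lost without acute 1, 2, 3 or 4, with adjusted p between 0.0116 and 0.0809. In healthy mice that of mt-Co2 (-2.45 on the log2 scale) was lost without healthy 1, 3, 4 or 5, with adjusted p between 0.0155 and 0.0931.

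The tRNAs were the class with the least in the IP. mt-Tp had 0 counts in chronic IP against 592 in chronic input, and 0 in healthy IP against 522 in healthy input. It was at least 156-fold lower in chronic and at least 152-fold lower in healthy IP. In acute mice all 10 of its IP counts were in library acute 4, against 898 in input. mt-Tn was at least 64.5-fold lower in acute and at least 20.2-fold lower in chronic IP. mt-Tc, the tRNA for cysteine, was at least 28.7-fold lower in chronic and at least 36.7-fold lower in healthy IP, and mt-Te at least 10.5-fold and 19.5-fold lower. mt-Tl1, 1 of the 2 tRNAs for leucine, was at 0 in every IP library, or at least 11.9-fold lower in acute, 11.6-fold in chronic and 19.2-fold in healthy mice.

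**Figure D5:**
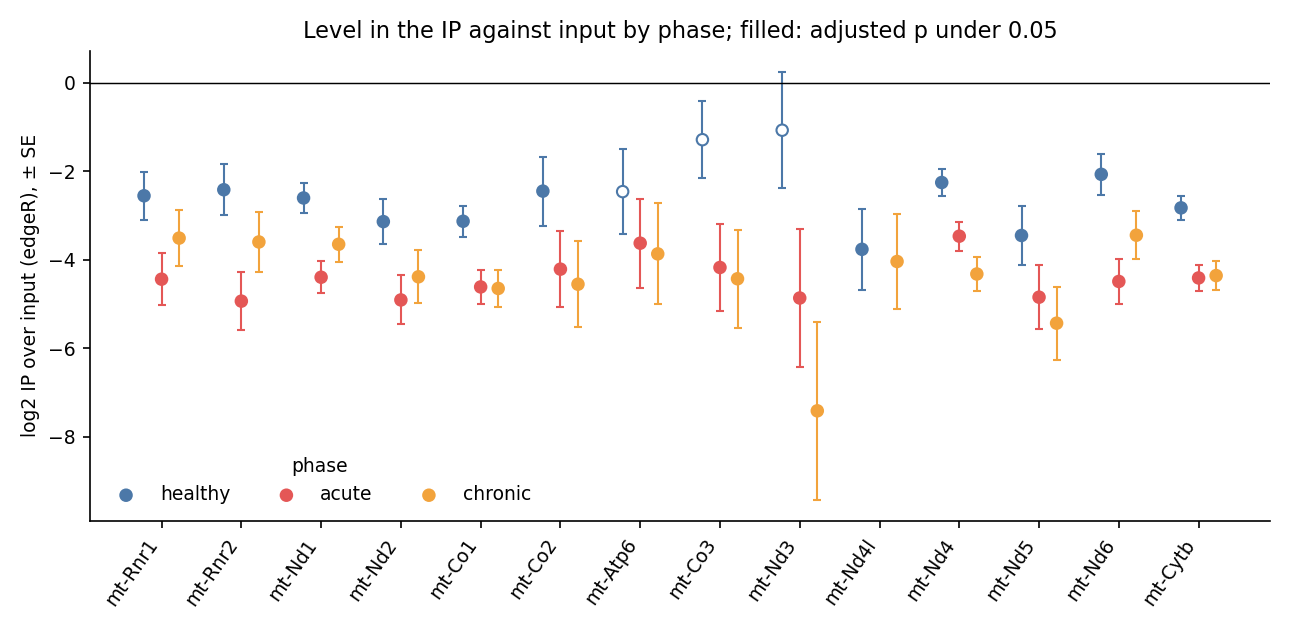
Log2 level in the IP over input (edgeR, ± SE) of 12 mRNAs and 2 rRNAs in map order, by phase; filled points had an adjusted p under 0.05, and mt-Nd4l in acute mice is not drawn because it had 0 IP counts. All points lie below 0, most acute and chronic points lie near -4, and most healthy ones lie higher, with a median over mRNAs of -2.53.

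Few nuclear-encoded subunits of the same complexes were lower in the IP. Among the 77 nuclear-encoded respiratory chain subunits, 14 were higher and 2 lower in acute, 18 higher and 0 lower in chronic, and 26 higher and 0 lower in healthy IP against input. Of all genes 8.56%, 8.74% and 7.20% were called higher in acute, chronic and healthy mice. Their medians were -0.05, 0.12 and 0.51 on the log2 scale. Of the 73 mitochondrial ribosomal proteins 7, 6 and 16 were higher and 0 lower in acute, chronic and healthy mice, which in acute and chronic mice is near that background. The nuclear noncoding RNAs were lower in the IP for 7 of 10 in acute, 9 of 10 in chronic and 6 of 10 in healthy mice, with medians of -3.14, -4.00 and -2.45. Meg3 stood at -4.41, -4.71 and -3.50. Like the mitochondrial mRNAs, this list had its smallest gap between IP and input in healthy mice, and the difference from healthy in that gap passed the edgeR test for 0 of its 10 members in acute and 0 in chronic mice. Whether other genes low in the IP do the same was not tested.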

How the data were processed

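RNA was measured by poly(A)-enriched sequencing in 14 IP and 14 input libraries, per the labels. The deposited values are raw counts per gene, made by the authors with featureCounts 1.5.1 on Ensembl 79 exons of GRCm38, for read pairs, without strand and without an option for reads that map to several places, per the file headers. The submitters' processing notes name STAR 2.4 and DESeq2. The header names 36 alignment files, and those without a sample here were not analysed here. The table has 0 other columns of samples.

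Gene counts were tested with edgeR 4.0.16 (R 4.3.3; TMM scaling, robust quasi-likelihood fit, filterByExpr with a minimum count of 10 and a minimum total of 15), with Benjamini-Hochberg adjustment over all genes tested and a threshold of 0.05. Phases were fitted within IP and within input. IP against input and the difference between the 2 changes were fitted over all 28 libraries, with dispersion estimates shared between IP and input. Fold changes are on the log2 scale. The test was checked on simulated counts. CPM levels use the TMM-scaled library size of all 28 libraries. Where a group had 0 counts, a floor of 3 counts over the group was used; such floors cover counting error only. Copies were found with BLAST 2.17.0 between GENCODE M21 transcripts, at an identity of at least 85% over at least 60 bases. M21 coordinates of the 37 genes equal those in the table.

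Every mRNA and rRNA could be named. A tRNA was named where its mean reached 1 CPM in a group or where it was called, and nuclear genes came from lists of at most 4 members named by smallest p, or from the annotated copies. The members and lists were chosen with earlier results of these data known. Alternatives were DESeq2 size factors, the DESeq2 1.42.0 Wald test, no filter on low counts, a replicate block, mitochondrial genes left out of library totals, all 28 libraries fitted together, a fit without the 4 IP libraries of lowest gene number, leaving out each library, other denominators of the shares, and make-up per kilobase.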

Additional observations from a re-analysis of the deposited data

Results flagged for a closer look

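In 20 of 104 groups of libraries, or 19.2%, 1 library stood apart from the others by Dixon's test, which chance does in about 1 in 20 groups. Many of these groups concern the same library, and the levels of mitochondrial genes in a library are not independent of each other. Values are CPM unless said otherwise.

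Healthy input 3 was high for rRNA, at 0.0759% of counts (others 0.0408% to 0.0496%), and for 6 genes: mt-Rnr1 at 357 (193 to 238), mt-Rnr2 at 351 (191 to 231), mt-Co2 at 9.83 (5.14 to 5.65), mt-Atp6 at 5.33 (2.65 to 3.43), mt-Co3 at 6.33 (2.74 to 3.61) and mt-Nd4l at 1.10 (0.204 to 0.312). Acute input 5 was high for mt-Co1 at 2288 (1114 to 1442), mt-Co2 at 9.0 (3.41 to 4.31), mt-Nd4 at 535 (215 to 302), mt-Nd6 at 156 (65.8 to 88.9) and mt-Cytb at 1108 (477 to 625). Chronic input 4 was high for mt-Atp8 at 0.245 (0.0960 to 0.104).

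In the IP, healthy 2 was high for mt-Co2 at 2.50 (0.704 to 0.959) and mt-Nd3 at 3.74 (0 in the others), and healthy 1 for mt-Co3 at 5.16 (0.235 to 1.07). Acute 5 had the only mt-Nd3 counts of its group, at 0.327. Chronic 4 had the only ones of mt-Nd3 and of mt-Nd4l in its group, at 0.0566 each. Acute 1 was low for mt-Cytb at 20.2 (32.4 to 36.8).

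The change in chronic EAE differed between IP and input for 2 genes, with a difference (IP minus input) of -2.07 on the log2 scale for mt-Nd4 and of -1.53 for mt-Cytb (edgeR interaction). These calls come from the joint fit, in which IP and input shared their dispersion estimates.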

How the results depend on the processing

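No called result changed its sign under the alternatives run. Signs did change in input where no call was made and the value was within its spread: leaving out a library gave median log2 values of the mitochondrial mRNAs down to -0.21 in acute against healthy (0.02 with all libraries) and down to -0.02 in chronic against acute (0.30). The log2 ratios of mRNA shares went down to -0.16 (0.05) and -0.03 (0.28) in these comparisons, and that of rRNA shares in chronic against acute up to 0.12 (-0.14). Per count of nuclear-encoded respiratory chain, the mRNA ratio in acute against healthy was -0.07 and the rRNA ratio in chronic against acute 0.02. Fits without a single library were left aside here. Of 111 settings of the counts of mitochondrial genes called, the shares and the make-up, 92 were classed as the same. Of 654 settings of single genes, medians and counts over all genes, 601 were. The same meant a count or median close to the main one, a share or make-up within its SD, or an unchanged call of a gene. In both sets 0 were classed as reversed. The number called in acute against healthy IP, 1, was 3 with DESeq2, 7 with all 28 libraries fitted together and 0 without the 4 IP libraries with the fewest genes; in chronic against healthy IP, 0, it was 2 with DESeq2 and 3 in the joint fit. For the difference between the changes in IP and input, the number was 4 with DESeq2 for acute EAE in place of 0. For chronic EAE it was 4 with DESeq2, 0 with no filter and 0 without those 4 libraries, in place of 2. In input all 3 phase comparisons had 0 called in the joint fit, and chronic against healthy also with no filter, in place of 2, 1 and 1. The share of mt-Co1 in the mitochondrial mRNA was 25.4% per kilobase in healthy IP, and 32.7%, 32.5% and 32.7% in healthy, acute and chronic input. The cause was not tested. Leaving out each library gave 0 to 1 called in acute IP, 0 to 1 and 0 to 2 for the difference between changes in acute and chronic EAE, 1 to 2 in acute input and 0 to 1 in chronic against healthy input.

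Counts over all genes moved more. Acute against healthy IP had 9 called, 123 with DESeq2, 1611 in the joint fit, 1 without the 4 libraries and 1 to 50 when a library was left out. Chronic against healthy IP had 26, and 54 with DESeq2 size factors, 296 with DESeq2, 2550 in the joint fit, 40 without the 4 libraries and 9 to 43 with a library left out. Chronic against acute IP had 0, 180 with DESeq2 and 1762 in the joint fit. The difference in acute EAE had 1, 384 with DESeq2, 101 without the 4 libraries and 0 to 287 with a pair left out; in chronic EAE it had 170, 47 with no filter, 1017 with DESeq2, 337 without the 4 libraries and 43 to 148 with a pair left out. In input the counts were 3230, 449 and 1259 for acute against healthy, chronic against healthy and chronic against acute, and 20, 0 and 0 in the joint fit. Chronic against healthy had 706 with DESeq2 and 250 to 447 with a library left out, and chronic against acute 784 to 1187.

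Pairing was taken to need a correlation above 0.1 in every pair, which the replicate numbers did not reach: same-numbered IP and input libraries correlated above 0.1 in 3 of 14 pairs (-0.0261 to 0.197), input phases in 2 of 13 and IP phases in 1 of 13. IP libraries correlated best with the input of their own number in 10 of 14 pairs, a hint of a shared source. The labels give IP and input libraries of a phase matching numbers, without saying that they come from the same mouse. The main fits did not use these numbers. With a replicate block the mitochondrial genes called were 0 in acute IP, 0 and 1 for the difference in acute and chronic EAE, 17, 17 and 16 for IP against input in acute, chronic and healthy mice, and as in the fit without it elsewhere; over all genes acute IP had 2, chronic IP 15, and the differences 0 and 28. In the IP 27 of the 37 genes were too low to be tested, and in input 19 of the 37 passed the filter. The common biological coefficient of variation was 1.06 among IP and 0.101 among input libraries. The part of depth in the number of calls was not tested.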
